A study of Mus musculus with 18 samples.

Results

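Transcripts of 6 sugar-binding receptors, Cd209a, Cd209d, Cd209e, Clec10a, Mgl2 and Mrc1, were followed through all 18 libraries of mouse eosinophils co-cultured with apoptotic cells (ACs). They are the rows of the deposited table, which lists 54446 genes, whose Ensembl identifiers map to these symbols, and all 6 were found. The study listed these same 6 transcripts among those it reported as amplified by IL-4 with ACs, so their rise with IL-4 below is not independent evidence of its direction.

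The cells were eosinophils washed from the peritoneum of Il5Tg mice, in which a transgene for Il5, the main growth factor of eosinophils, raises their number, and the labels give the strain as C57BL/6. The promoter of the transgene and the age of the eosinophil donors were not given in the sources used here. The paper attributes the eosinophils cultured with ACs alone to separate mice, and for the stimulated libraries the animal behind each one is not given. Every library, the controls included, came from eosinophils cultured with thymocytes of wild-type mice that dexamethasone had killed, and the eosinophils were purified again with anti-Siglec-F beads afterwards. The Type 1 experiment compared ACs alone with E. coli + ACs, IFN-γ + ACs and IFN-γ + E. coli + ACs, and the IL-4 experiment compared ACs alone with IL-4 + ACs, with 3 libraries in each of the 6 groups. The ACs libraries were assigned to the experiments from the wording of their description labels. Libraries were made by CEL-Seq2, which reads the 3' end of each transcript, so levels below are normalized counts and are compared within a gene, not between genes. Eosinophils cultured without ACs are not analysed here, so no value below measures what the ACs themselves did.

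All 6 receptors are C-type lectins, proteins that bind sugars through calcium. CD209 proteins (the mouse relatives of human DC-SIGN) bind mannose and fucose, and in the mouse they form a family of neighbouring genes. Clec10a encodes MGL1 and Mgl2 encodes MGL2, a pair of receptors of galactose-type sugars on macrophages and dendritic cells. Mrc1 encodes the mannose receptor CD206, which takes up mannose-bearing glycoproteins and microbes. In macrophages, transcripts of several of these lectins rise when IL-4 signals through its receptor to the transcription factor STAT6, and Mrc1 and MGL transcripts are used as markers of that state.

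The libraries held between 779421 and 7782072 counted reads (median 4461121). Replicate 3 was the shallowest library in both groups of the IL-4 experiment, with 849705 reads for IL-4 + ACs and 779421 for ACs, and 3 reads there stand for normalized counts of 15.42 and 16.08. Siglecf, the receptor used for purification, lay between 1514 and 3367 in every library and the eotaxin receptor Ccr3 between 2623 and 4934. The eosinophil granule transcripts were low, with Epx between 0.00 and 25.7 and Prg2 between 57.5 and 270. Transcripts used here as markers of peritoneal macrophages were counted in every library. Csf1r, the receptor for macrophage colony-stimulating factor, lay between 814 and 1779 and the complement gene C1qc between 2138 and 14355. Gata6, a transcription factor of resident peritoneal macrophages, lay between 24.4 and 199, and Cd5l between 31.4 and 558. The paper reported Gata6 among the transcripts that ACs raised in its eosinophils, and it detected Tim4 (Timd4) mRNA in eosinophils by PCR. Which cells carried the marker transcripts or the lectin transcripts was not tested. In bulk RNA fewer cells of a type and less RNA per cell cannot be told apart.

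The genes of the lectins lie in 3 places in GRCm38. Cd209a (ENSMUSG00000031494.7, chr8:3743397-3748984), Cd209e (ENSMUSG00000040197.4, chr8:3847965-3854309) and Cd209d (ENSMUSG00000031495.8, chr8:3871824-3878555) stand in that order on the minus strand. Mgl2 (ENSMUSG00000040950.13, chr11:70130329-70137550) and Clec10a (ENSMUSG00000000318.16, chr11:70156197-70170834) are neighbours on the plus strand. Mrc1 (ENSMUSG00000026712.3, chr2:14229392-14332057) stands alone, on the plus strand.

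Cd209e showed the widest contrast of the 6 between the conditions. In the IL-4 experiment the IL-4 + ACs libraries held normalized counts of 148, 81.7 and 206, and the ACs libraries 1.5, 0.00 and 0.00. The lowest value with IL-4 was thus far above the highest without it. The Type 1 experiment held 0 reads of Cd209e in its 12 libraries, which allows a pooled level of up to 0.262 normalized counts (3 reads, counting error only). Since the ACs libraries of the IL-4 experiment held 2 reads of Cd209e against 451 with IL-4, the ratio of pooled levels was 165, with a 95% interval from 45.5 to 1370 that covers counting error only. In the limma fit, which adds 1 to each value before the logarithm, the log2 difference of Cd209e was 6.65 (SE 0.64, n = 3 per group, adjusted p = 0.00079). Cd209e had a mean high enough for a test only through the group in which it is high, and the study had listed it. The limma test of Cd209e is therefore not independent evidence of a rise.

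Cd209a held 32.4, 23.7 and 20.6 normalized counts with IL-4 + ACs and 0.75, 3.89 and 0.00 with ACs alone. Cd209d held 13.9, 16.9 and 41.1 against 0.00, 1.56 and 0.00. For both genes the groups were apart, but few reads carried them, 105 against 6 for Cd209a and 64 against 2 for Cd209d, and the highest Cd209d value stood in the shallow replicate 3 library. The ratio of pooled levels was 12.8 for Cd209a (95% interval 5.70 to 35.8) and 23.5 for Cd209d (6.24 to 198), again for counting error only. Their log2 differences of 3.67 (SE 0.92) and 4.03 (SE 1.07) missed the threshold in limma, with adjusted p = 0.15 and 0.18. The count tests on the recovered reads put both past it, with adjusted p = 0.0051 and 0.013 in edgeR and 0.0036 and 0.0029 in DESeq2, as did limma with array weights (0.00039 and 0.0014). With a pseudocount of 5 limma put Cd209a past it (adjusted p = 0.048) and not Cd209d (0.082). Without both shallow replicate 3 libraries, a setting chosen after seeing the data, limma gave Cd209a an adjusted p = 0.0051, and Cd209d no longer reached the mean of 10 needed for a test. Both genes reached that mean only through the group in which they are high, and the study had listed them. None of these tests is therefore independent evidence of a rise.

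In the Type 1 experiment the 12 libraries together held 8 reads of Cd209a and 5 of Cd209d. All 8 reads of Cd209a lay in libraries that had received E. coli, 6 where E. coli was the sole stimulus and 2 where IFN-γ was added, against 0 in the 6 libraries without bacteria. With so few reads Cd209a was not tested there at the mean of 10. In a limma fit of every gene with any value above 0, its log2 difference between E. coli + ACs and ACs was 1.37 (SE 0.42, adjusted p = 0.066). The 5 reads of Cd209d were spread over 3 of the 4 groups, and its highest value was 1.76.

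The windows around the starts of the 3 CD209 genes are printed because these are the genes of their cluster whose libraries with and without IL-4 did not overlap. They run from 100 bases before to 10 bases after the start given by RefSeq (GRCm38.p6), at chr8:3748975-3749084, chr8:3878490-3878599 and chr8:3854277-3854386, all read 5' to 3' on the minus strand. The capitals mark the longest stretch, of 12 bases, that the full 300-base windows of all 3 genes share.
Cd209a: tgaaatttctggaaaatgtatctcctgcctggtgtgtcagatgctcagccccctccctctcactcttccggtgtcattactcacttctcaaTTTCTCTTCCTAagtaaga
Cd209d: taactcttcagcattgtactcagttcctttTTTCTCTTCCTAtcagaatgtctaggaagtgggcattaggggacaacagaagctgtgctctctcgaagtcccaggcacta
Cd209e: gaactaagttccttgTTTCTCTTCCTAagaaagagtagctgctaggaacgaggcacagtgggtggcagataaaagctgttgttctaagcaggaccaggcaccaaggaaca

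The shared stretch began 9 bases before the start in Cd209a, 70 before it in Cd209d and 85 before it in Cd209e. Distances here are counted from the RefSeq starts. The GENCODE bounds printed above begin further upstream for Cd209d and Cd209e, so distances from there would be shorter, while for Cd209a the starts agree. It was looked for because it is shared, so its presence in these 3 is no test. On either strand it was found in 8 of 27025 promoter windows, 1 per gene (0.0296%), and not in those of Cd209b, Cd209c, Cd209f, Cd209g, Mgl2 or Mrc1. The letters TTCNNNNGAA, a form of site that STAT6 can bind and that reads alike on both strands, occurred once among the members, in Cd209e from 79 to 70 bases before the start, where they overlap the shared stretch, and in 6.99% of all windows. The form with 3 free bases, TTCNNNGAA, was in none of the 5 members with a window and in 8.47% of all windows. A match is a description of letters, not of a bound site. Of the 6 members, 5 had a window in the table, and Clec10a had none.

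**Figure D1:**
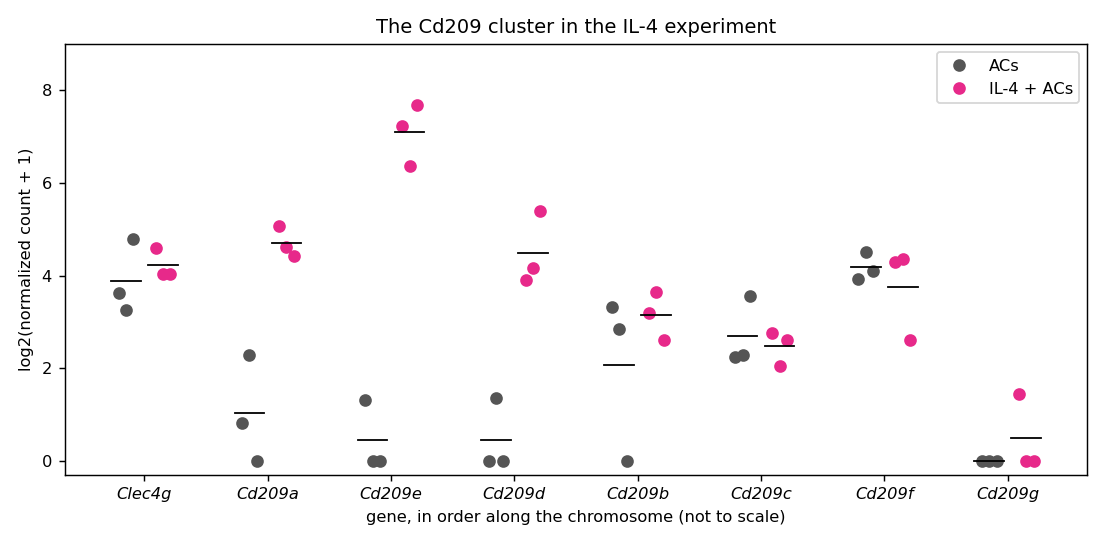
Values of the Cd209 genes and of the neighbouring lectin gene Clec4g in the 6 libraries of the IL-4 experiment, in their order along the chromosome. Each point is a library, on the scale log2(normalized count + 1), and each bar is the mean of 3; the groups stand apart for Cd209a, Cd209e and Cd209d and overlap for the other genes.

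The other genes of the CD209 cluster were low in both groups of the IL-4 experiment. Cd209f held 18.5, 19.5 and 5.14 normalized counts with IL-4 + ACs and 14.3, 21.8 and 16.1 with ACs, a log2 difference of -0.43 (95% interval -1.78 to 0.93, adjusted p = 0.85). Cd209b held 8.11, 11.6 and 5.14 against 9.02, 6.23 and 0.00, Cd209c 5.79, 3.16 and 5.14 against 3.76, 3.89 and 10.7, and Cd209g at most 1.74 in any of the 6 libraries. Clec4g, which encodes the lectin LSECtin and lies beside Cd209a, held 23.2, 15.3 and 15.4 with IL-4 + ACs and 11.3, 8.56 and 26.8 with ACs (log2 difference 0.33, 95% interval -0.92 to 1.57, adjusted p = 0.88). These neighbours thus overlapped between the groups, although none of them was tested directly against Cd209a, Cd209d or Cd209e.

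Clec10a fell wherever E. coli was present and was the only one of the 3 members tested that was called between IFN-γ + ACs and E. coli + ACs. Its normalized counts in the Type 1 experiment were 71.6, 97.6 and 59.5 with ACs alone and 73.9, 73.4 and 73.9 after IFN-γ was added. E. coli left 0.84, 3.27 and 10.6 beside ACs, and both stimuli left 0.00, 4.89 and 4.14. The libraries with bacteria lay below all libraries without them, whether or not IFN-γ was present. In reads, the fall was from 265 with ACs to 17 after E. coli and 7 after both stimuli, while 156 remained after IFN-γ alone, whose libraries were shallower.

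Clec10a fell by 4.07 on the log2 scale with E. coli + ACs (SE 0.64, n = 3 per group, adjusted p = 0.00018) and it fell by 4.60 when IFN-γ was there too (SE 0.64, adjusted p = 1.2e-05). Within the IFN-γ groups, adding E. coli lowered it by a log2 difference of -4.58 (SE 0.64, adjusted p = 5.3e-05). With IFN-γ + ACs the difference from ACs was -0.02, with a 95% interval from -1.35 to 1.32, which leaves room for changes of over 2-fold in either direction. Set directly against each other, IFN-γ + ACs held more Clec10a than E. coli + ACs by 4.05 on the log2 scale (SE 0.64, adjusted p = 0.00011). The interaction, which asks whether the effect of one stimulus depends on the other, was -0.51 (95% interval -2.40 to 1.38, adjusted p = 0.80).

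In the IL-4 experiment Clec10a held 533, 512 and 591 normalized counts with IL-4 + ACs and 85.7, 96.5 and 118 with ACs. All 3 values with IL-4 stood above 500 and all 3 without it below 120. The log2 difference was 2.44 (SE 0.18, adjusted p = 0.0002), a 5.44-fold rise on this scale, and it was called under each alternative fit and with any single library left out.

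Mgl2 rose with IL-4, and its groups in the Type 1 experiment overlapped. It held 176, 157 and 159 normalized counts with IL-4 + ACs and 54.9, 61.5 and 37.5 with ACs, with no overlap. The log2 difference was 1.69 (SE 0.24, adjusted p = 0.0088), and without replicate 1 of IL-4 + ACs it was 1.64 with an adjusted p = 0.06, so the call was lost without that library while the difference hardly moved. In the Type 1 experiment Mgl2 held 24.4, 14.1 and 13.1 with ACs, 18.4, 18.8 and 22.0 once E. coli was added, 30.3, 21.8 and 32.8 after IFN-γ and 24.2, 13.4 and 26.2 after both. These 4 groups overlapped. The log2 differences of Mgl2 from ACs were 0.24 with E. coli (95% interval -0.54 to 1.01, adjusted p = 0.76), 0.72 with IFN-γ (-0.053 to 1.497, adjusted p = 0.16) and 0.29 with both (-0.48 to 1.07, adjusted p = 0.56). For E. coli the interval excludes a fall of the size measured for Clec10a.

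Clec10a and Mgl2 are close copies in part of their sequence. Their longest transcripts in GENCODE M21 share an identical run of 183 bases, which ends 359 bases before the 3' end of Clec10a and 849 bases before that of Mgl2. Of the 50-base words in the last 500 bases of Clec10a, 20.4% also occur in Mgl2 transcripts. The methods state that only uniquely mapped reads were counted, so reads that fall wholly in that run would be missing from either gene, and the values of this pair are less certain to that extent. For Cd209a, Cd209d, Cd209e and Mrc1 0 of these words occurred in transcripts of another gene, and for Mgl2 4.21%. The microRNA gene Mir511 lies inside Mrc1 on the same strand and was listed at 0 in every library.

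Mrc1 fell with each stimulus of the Type 1 experiment. It held 97.6, 134 and 94.6 normalized counts with ACs, against 10.1, 7.36 and 14.95 once E. coli was added, 5.28, 32.1 and 16.4 with IFN-γ instead and 2.85, 9.77 and 13.8 with both. Every stimulated library lay below every ACs library. The log2 differences were -3.25 with E. coli (SE 0.55, adjusted p = 0.00041), -2.82 with IFN-γ (SE 0.55, adjusted p = 0.00071) and -3.67 with both (SE 0.55, adjusted p = 3e-05).

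The difference in Mrc1 between the combined stimulus and either single one did not pass the threshold. IFN-γ + E. coli + ACs differed from IFN-γ + ACs by -0.85 (95% interval -2.01 to 0.30, adjusted p = 0.30) and from E. coli + ACs by -0.42 (-1.58 to 0.74, adjusted p = 0.63). The interaction of Mrc1 was 2.40 (SE 0.78, adjusted p = 0.067), so the combined fall was smaller than the sum of the single falls in value, without passing the threshold. It passed with a pseudocount of 5 (adjusted p = 0.02), with DESeq2 (0.015) and without replicate 2 of IFN-γ + ACs (0.033) or replicate 1 of IFN-γ + E. coli + ACs (0.021). The groups with E. coli, IFN-γ and both held 38, 40 and 20 reads of Mrc1, against 379 with ACs. A level cannot fall below 0 reads, and a larger pseudocount raises that floor. The DESeq2 fit used the recovered reads without a pseudocount. Reads were few in the stimulated groups and the call changed with the fit. Nothing is therefore read from these calls on whether the single falls add up. With IL-4 Mrc1 held 186, 160 and 144 normalized counts against 46.6, 38.2 and 53.6 with ACs, a log2 difference of 1.81 (SE 0.23, adjusted p = 0.0047) and no overlap. In the fit of all 18 libraries that adjusted p was 0.059.

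**Figure D2:**
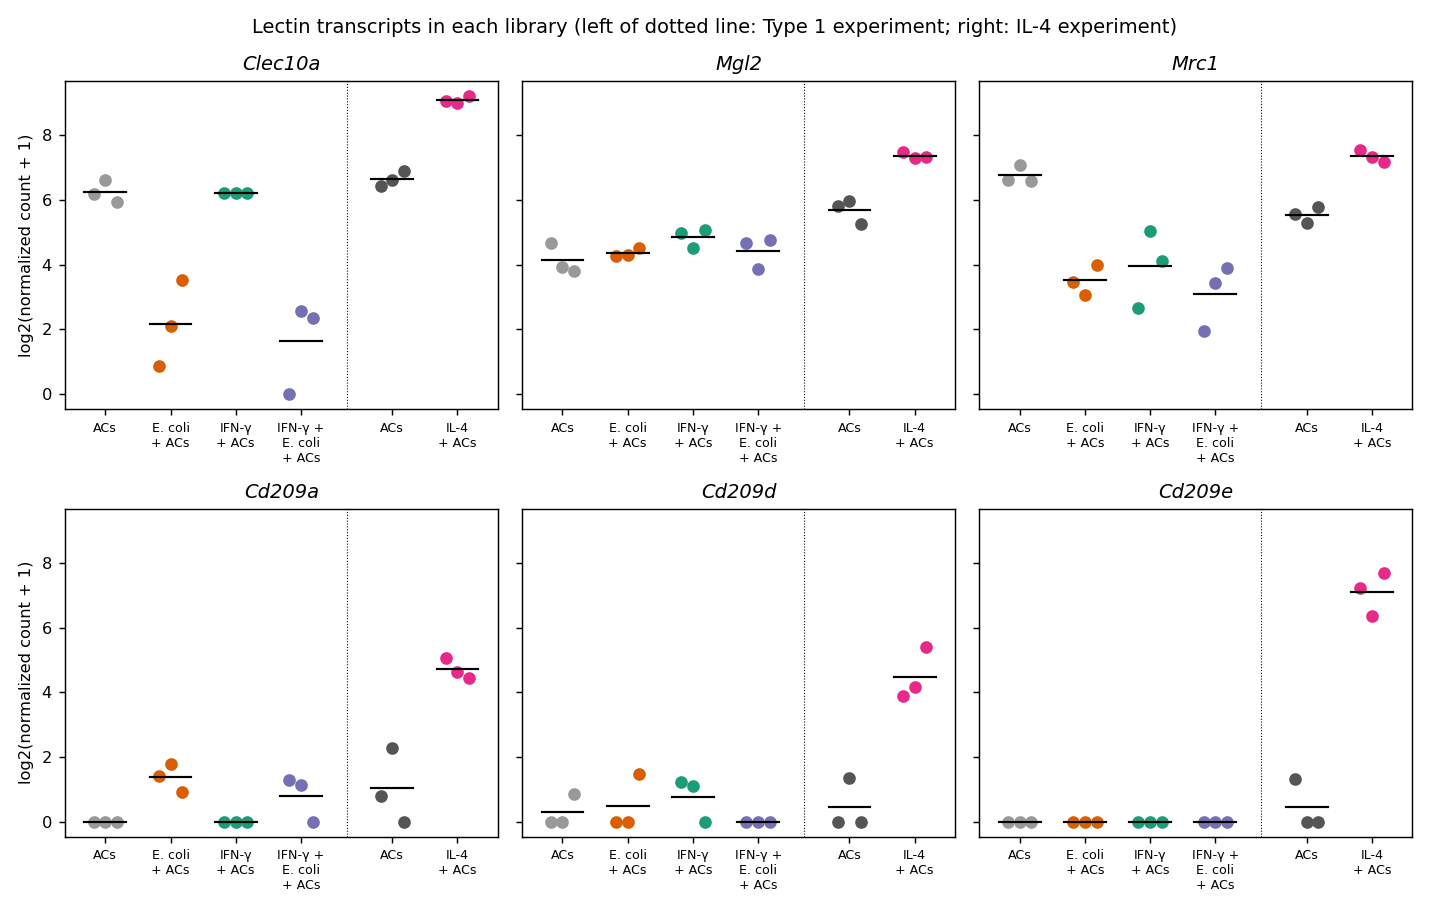
Level of each lectin in all 18 libraries, on the scale log2(normalized count + 1), with points for libraries and bars for the means of 3; the dotted line separates the experiments. Clec10a is low in all 6 libraries with E. coli, Mrc1 is low in all 9 stimulated libraries of the Type 1 experiment, Mgl2 overlaps among its groups there, and in the IL-4 experiment all 6 lectins lie higher with IL-4 + ACs than with ACs.

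Counted over the members, 4 of the 6 were called higher with IL-4 + ACs (Clec10a, Cd209e, Mrc1 and Mgl2), beside 0.74% of the 10669 genes tested, and 6 of 6 did not overlap between the groups, beside 8.45% of all genes tested. Cd209a, Cd209d and Cd209e passed the filter only through the group in which they are high, and the list was drawn from this comparison by the study, so nothing is read from these counts. Over the alternative fits the number called ranged from 3 to 6. Calls needed at least a 1.5-fold change besides an adjusted p below 0.05. For lower calls in this comparison the share of all genes was 0.347%, with 0 of 6 members among them.

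In the Type 1 experiment only Clec10a, Mgl2 and Mrc1 reached the mean of 10 and were tested. With E. coli + ACs, 2 of 3 were called lower and were apart, where 5.25% of 10166 genes were called lower and 18.4% were apart in that direction. With IFN-γ + ACs it was 1 of 3 for both, Mrc1, beside 9.96% and 20.3% of all genes, and 0 of 3 were called higher beside 11.4%. With IFN-γ + E. coli + ACs it was 2 of 3, beside 17.2% called lower and 24.8% apart, and 0 of 3 called higher beside 14.7%. Adding E. coli to IFN-γ + ACs gave 1 of 3 called lower, Clec10a, beside 8.61%. Adding IFN-γ to E. coli + ACs gave 0 of 3 called in either direction, beside 19.4%. IFN-γ + ACs against E. coli + ACs gave 1 of 3 called higher, beside 9.84%, and the interaction 0 of 3, beside 7.44%. The 3 comparisons with ACs share their control libraries, so these counts are not independent of each other, and an exact permutation test of 1 gene, 3 libraries against 3, cannot go under a two-sided p of 0.10.

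**Figure D3:**
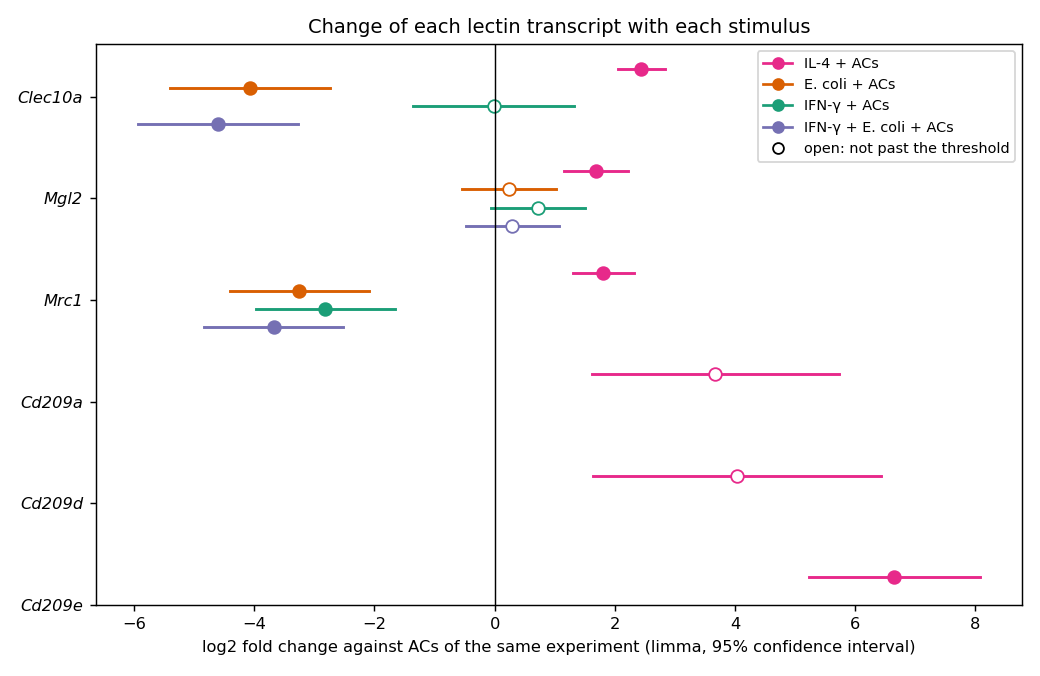
Change of each lectin with each stimulus, as the log2 fold change of log2(normalized count + 1) against the ACs libraries of the same experiment, with 95% confidence intervals from limma; filled points were called and open points were not. Clec10a and Mrc1 lie on opposite sides of 0 with IL-4 and with E. coli, Mgl2 lies above 0 with IL-4 alone past the threshold, and the CD209 genes have no value for the Type 1 stimuli because they were not tested there.

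The ACs libraries themselves differed between the experiments. Of the 3 members tested, Mrc1 was lower in the ACs of the IL-4 experiment by -1.22 on the log2 scale (SE 0.23, adjusted p = 0.0047) and Mgl2 was higher by 1.55 (SE 0.35, adjusted p = 0.011), that is 2 of 3 called in either direction beside 19.2% of 10592 genes. Clec10a differed by 0.41 (95% interval -0.11 to 0.92, adjusted p = 0.24). Experiment, culture and library preparation cannot be told apart here, so levels of one experiment were not set against the other's stimuli. Within the fit of all 18 libraries the difference of Mrc1 was not called (adjusted p = 0.081).

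The macrophage markers also changed with the Type 1 stimuli, not always in the direction of the lectins. The summed level of 12 of them (Csf1r, Gata6, Timd4, Cd5l, Vsig4, C1qa, C1qb, C1qc, Marco, Adgre1, Lyve1 and Folr2) was 14500 to 18600 normalized counts with ACs in the Type 1 experiment, 7590 to 9230 after E. coli, 21300 to 30200 after IFN-γ and 9060 to 9350 after both. In the IL-4 experiment it was 21600 to 31300 with ACs and 17600 to 28200 with IL-4 + ACs, so these groups overlapped. None of the 12 was at 0 throughout. With E. coli 6 of 12 were called lower, beside 5.25% of all genes tested, and 0 higher, with a median log2 change of -1.04 beside 0.00 over all genes tested, and among them Vsig4, a receptor of complement fragments, fell by 2.73 (SE 0.24, adjusted p = 2.2e-07). With IFN-γ 3 of 12 were called higher (Timd4, Marco and C1qb), beside 11.4%, and 1 lower (Vsig4), beside 9.96%. With both stimuli it was 2 higher, beside 14.7%, and 8 lower, beside 17.2%. With IL-4 it was 0 higher and 2 lower, Marco and Vsig4, beside 0.347%.

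Set against that sum, the lectins moved in different ways. Per 1000 counts of the summed macrophage markers, Clec10a was at 3.84, 5.69 and 4.09 with ACs and at 0.091, 0.431 and 1.18 with E. coli + ACs. Each ratio with E. coli lay below each ratio without it. Mrc1 was at 5.24, 7.83 and 6.50 per 1000 with ACs and at 0.207, 1.06 and 0.769 with IFN-γ + ACs, where the sum itself was higher. Mgl2 was at 1.31, 0.821 and 0.897 per 1000 with ACs and at 2.00, 2.48 and 2.45 with E. coli + ACs. When the 3 C1q genes were left out of the sum, Mgl2 was at 4.04, 2.85 and 2.67 with ACs and at 3.94, 4.55 and 4.90 with E. coli + ACs, and these groups overlapped. Single genes weigh heavily in both sums. C1qc was the largest in the full sum, at 9299, 8681 and 6977 with ACs and 3325, 2471 and 2993 with E. coli + ACs. Without the C1q genes Adgre1 was the largest, at 1847, 1698 and 1874 with ACs and 2323, 2402 and 2373 with E. coli + ACs. Adgre1 was thus higher with E. coli, and neither ratio follows all the markers alike. Whether eosinophils carried Adgre1 or other genes of the sums was not tested, so neither sum is a measure of macrophages alone. With IL-4 + ACs Clec10a stood at 28.1, 29.1 and 20.9 per 1000, against 3.97, 3.77 and 3.77 with ACs, while the sum did not separate the groups. Without the C1q genes the groups of Clec10a and Mrc1 in these comparisons still stood apart. The part of macrophage RNA in any of these differences was not tested.

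**Figure D4:**
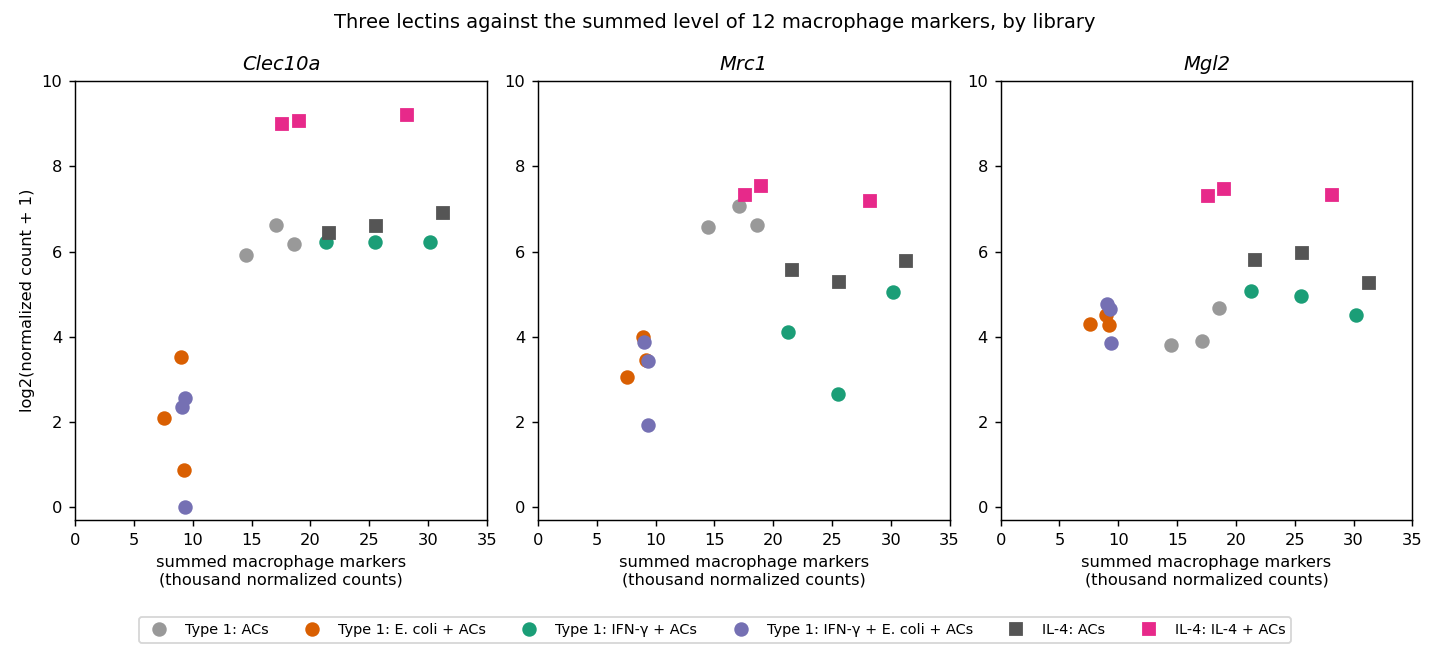
Level of Clec10a, Mrc1 and Mgl2, as log2(normalized count + 1), against the summed normalized counts of 12 macrophage markers (axis in units of 1000), for the 18 libraries (circles, Type 1 experiment; squares, IL-4 experiment). The 6 libraries with E. coli have sums between 7590 and 9350 and lie lowest for Clec10a, the IFN-γ + ACs libraries have high sums but low Mrc1, and IL-4 + ACs lies above ACs at sums that overlap.

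Markers of other cells were lower. Dendritic cell and monocyte-derived genes summed to between 577 and 1170 normalized counts over all libraries, with the defining dendritic cell genes Flt3 at most 6.51 and Zbtb46 at most 22.6. Among them Batf3, a transcription factor of dendritic cells, was called higher with IL-4 + ACs (log2 difference 1.27, SE 0.21, adjusted p = 0.02). Mast cell genes summed to 67.6 at most, B cell genes to 89.9 and thymocyte genes to 150. Among the mast cell genes Cpa3, which encodes a mast cell protease, was called higher with IFN-γ + ACs (log2 difference 2.75, SE 0.70, adjusted p = 0.0062) and with both stimuli (3.04, SE 0.70, adjusted p = 0.002), and its part in the lectin values was not tested. Of 7 eosinophil genes 6 were tested in the Type 1 experiment, and 3 of them were called lower with IFN-γ + ACs, beside 9.96% of all genes: Siglecf by -0.99 (SE 0.10, adjusted p = 5.5e-07), Il5ra and Alox15. With IL-4 + ACs 0 of the 7 tested were called, beside 0.74% of all genes called higher and 0.347% lower.

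Of 12 further lectins of the same families, 4 (Cd207, Clec4f, Asgr2 and Mrc2) were at 0 in all 18 libraries, and the highest value of any other was 67.6, for Ly75. In the IL-4 experiment 0 of the 3 tested (Ly75, Clec4g and Cd209f) were called, beside 0.74% of all genes called higher and 0.347% lower. Their median log2 change was -0.01, the same as over all genes tested. Of the 2 tested in the Type 1 experiment, 1 was called higher with IFN-γ, beside 11.4% of all genes, and 0 lower, beside 9.96%. With both stimuli it was 1 higher, beside 14.7%, and 1 lower, beside 17.2%. With E. coli 0 were called, where 513 of 10166 genes were called higher and 5.25% lower. Ly75, the DEC-205 receptor and a relative of the mannose receptor, went the other way from Mrc1 with IFN-γ. It held 5.69, 22.5 and 10.6 normalized counts with ACs and 34.3, 67.6 and 63.6 with IFN-γ + ACs (log2 difference 2.14, SE 0.39, adjusted p = 0.00037). Cd209f, from the CD209 cluster, fell from 36.6, 34.7 and 18.8 with ACs to 9.98, 8.55 and 11.04 with IFN-γ + E. coli + ACs (log2 difference -1.46, SE 0.41, adjusted p = 0.0085). It was not called with either stimulus alone.

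The IL-4 receptor and STAT6 pathway was described over 15 genes, of which 14 were tested in the IL-4 experiment. Of these, 1 was called higher, beside 0.74% of all genes, and 0 lower, and their median log2 change was 0.34 beside -0.01 over all genes. The one called was Cish, a feedback inhibitor of cytokine signalling, at 658, 717 and 668 normalized counts with IL-4 + ACs against 347, 354 and 300 with ACs (log2 difference 1.03, SE 0.14, adjusted p = 0.0063). Klf4, a transcription factor that acts with STAT6 in macrophages, held 406, 391 and 360 against 119, 107 and 268, a difference of 1.35 that missed the threshold (SE 0.30, adjusted p = 0.093). The transcripts of the receptor chain Il4ra and of Stat6 itself were not called. Stat6 was nevertheless lower without overlap, at 543, 586 and 637 with IL-4 + ACs against 756, 889 and 777 with ACs. Its log2 difference was -0.45 (SE 0.14, adjusted p = 0.28), and the groups of Il4ra overlapped. Jak3 was also lower without overlap and not called, by -1.15 (SE 0.30, adjusted p = 0.17). Irf4 was higher by 2.20 (SE 0.84, adjusted p = 0.43) and Il2rg by 0.55 (SE 0.14, adjusted p = 0.16), neither called. Both stood higher without overlap, as did 8.45% of all genes tested.

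In the Type 1 experiment 13 of the 15 were tested. With E. coli 2 were called lower, beside 5.25% of all genes, and 0 higher, Klf4 by -1.52 (SE 0.20, adjusted p = 3.2e-05) and Arg1, which encodes the arginine-degrading enzyme arginase 1, by -0.64 (SE 0.15, adjusted p = 0.0056). With IFN-γ Klf4 differed by 0.35 (adjusted p = 0.22) and with both stimuli by -0.08 (adjusted p = 0.77), and its interaction was called (1.09, SE 0.29, adjusted p = 0.024). With IFN-γ 5 were called higher, beside 11.4%, and 0 lower, among them the transglutaminase Tgm2 by 3.02 (SE 0.13, adjusted p = 2.3e-12), Arg1 by 2.06 (SE 0.15, adjusted p = 3e-09), the IL-13 receptor chain Il13ra1 by 1.498 (SE 0.23, adjusted p = 5.2e-05) and the signalling inhibitor Socs1 by 1.48 (SE 0.22, adjusted p = 5.7e-05). Arg1, often named beside Mrc1 as a marker of IL-4-activated macrophages, therefore moved in the opposite direction from Mrc1 with IFN-γ + ACs.

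The genes most like each lectin across the 18 libraries were found by Pearson correlation of log2(normalized count + 1), centred on the ACs mean of each experiment, among 10414 genes with a mean of at least 10. These are descriptions over libraries that share depth and treatment. For Cd209e they were Tmem26 (r = 0.976), Chil4 (0.938), Ddx4 (0.926), Ccl7 (0.904) and Gm5150 (0.885). Cd209e was at or near 0 outside the IL-4 + ACs libraries, so these r values are set by that group. A gene that rises with IL-4 can rank high here for that alone. Chil4 encodes a chitinase-like protein and Ccl7 a chemokine for monocytes and eosinophils. For Mgl2 they were Arf2 (0.851), Rnase2a (0.851), Chil3 (0.844), the chemokine Ccl8 (0.840) and Pdcd1lg2, which encodes the checkpoint ligand PD-L2 (0.828).

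For Clec10a the most similar were Emp1 (r = 0.936), Il6st, the shared signalling chain of the IL-6 receptor family (0.935), Snx5 (0.906), Fam20a (0.904) and Rgl1 (0.900). Like Clec10a, Emp1 and Il6st differed little from ACs with IFN-γ in value (log2 differences of -0.23 and -0.09) and were lower with E. coli (-1.95 and -1.32). With IL-4, where Clec10a rose by 2.44, Emp1, Il6st, Snx5, Fam20a and Rgl1 differed by 0.92, 1.3, 0.5, 0.26 and 0.21. For Mrc1 they were Slc38a9 (0.926), Abcg3 (0.926), Anxa1, which encodes annexin A1 (0.922), S100a10 (0.921) and Gm16201 (0.915). Abcg3 and Anxa1 were low with all 3 Type 1 stimuli, at -3.76 and -2.28 with E. coli and at -4.31 and -1.98 with IFN-γ. With IL-4, where Mrc1 rose by 1.81, Slc38a9, Abcg3, Anxa1, S100a10 and Gm16201 differed by 0.22, 0.35, 0.09, 0.25 and 1.09. Among the 4 lectins with a mean of at least 10, r was highest for the pair Clec10a and Mrc1 (0.846) and lowest for the pair Mgl2 and Mrc1 (0.337).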

How the data were processed

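Eosinophils of 6 groups, 3 libraries each, were compared. The values that the authors deposited are a signal for every gene in every library: reads counted on the gene after division by the size factor of DESeq2. The submitters' processing notes name FastQC 0.11.5, Trim Galore, cutadapt 1.10, TopHat2 2.1.0, Bowtie2 2.2.6, HTSeq 0.6.1, DESeq2 1.26.0 and GRCm38. The paper describes a second pipeline too; which of them gave this table, how strand was treated and whether molecular identifiers were collapsed are not given in the sources used here. Dividing a library's values by its smallest step returned whole reads for 100.0% of values (tolerance 0.02 of a read). Identifiers were matched to GENCODE M21 without their version (54409 of 54446).

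Differences were tested with limma 3.58.1 under R 4.3.3 (lmFit, eBayes with trend) on log2(normalized count + 1). Genes entered with a mean of at least 10 over the libraries of the fit, and p-values were adjusted by Benjamini-Hochberg over all of them. A fold on this scale understates the change of low genes. The 12 Type 1 libraries shared a fit, as did the 6 of the IL-4 experiment and the 6 with ACs alone. The thresholds of 0.05 and 1.5-fold are those of the study. Alternatives changed the pseudocount to 5, removed the filter or set it to 50, added the replicate number as a block, scaled to a common upper quartile, used array weights, ran edgeR 4.0.16 or DESeq2 1.42.0 on the recovered reads, fitted the 18 libraries together, dropped the fold threshold, or left out each library in turn. Intervals of read ratios are exact conditional binomial intervals at 95% and cover counting error only.

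The members and all lists were chosen with earlier results of these data known. Named genes are the members in every comparison, genes of the lists that were called or lie beside a member, marker genes, and for each member with a group mean of at least 50 the 5 genes most correlated with it. Klf4 with IL-4, IFN-γ or both stimuli, Il4ra and Stat6 are named beyond that rule, after their values were seen. So are Irf4, Il2rg and Jak3 with IL-4, and Ly75 and Cd209f where they were not called. Between replicates of a group the chi-square of counts was 4.19 to 14.69 per degree of freedom, so no library was a copy of another. The labels do not say whether replicates are separate mice or cultures. The paper calls its replicates biological without giving the animal behind each stimulated library, so p-values measure the spread between these libraries. The fits were tested on simulated data. Other work used Python 3.11.15 (numpy 2.4.6, pandas 2.3.3, scipy 1.17.1, matplotlib 3.10.9).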

Additional observations from a re-analysis of the deposited data

How the results depend on the processing

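With a mean of at least 50 as the filter Clec10a, Mgl2 and Mrc1 were no longer tested in the Type 1 experiment, so 0 were called with E. coli, IFN-γ, both, E. coli within IFN-γ, and IFN-γ against E. coli, and 1 between the ACs libraries of the experiments, where all 18 libraries in one fit also gave 1. With no filter 2 were called between IFN-γ + ACs and E. coli + ACs, the second being Cd209a (log2 difference -1.37, adjusted p = 0.048). The interaction of Mrc1 was called with a pseudocount of 5 and with DESeq2 (1 of the members each), and leaving out 1 library gave between 0 and 1. Mrc1 with IL-4 lost its call in the fit of all 18 libraries (adjusted p = 0.059).

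Same-numbered libraries did not deviate together, with correlations of -0.089 to 0.085 in the Type 1 experiment and 0.001 to 0.021 in the IL-4 experiment, so the numbers were not taken as pairs. With the replicate block 1 member was called in the interaction (Mrc1, adjusted p = 0.04), and no other count of called members changed.

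Some differences that were not called changed sign. For IFN-γ added to E. coli + ACs, Mgl2 was -0.048 with a common upper quartile, which shifted the median of all genes by -0.105 there and by -0.137 for both stimuli against ACs. Leaving out 1 library gave -0.12 to 0.34 for Mgl2, -1.17 to 0.29 for Clec10a and -0.82 to 0.15 for Mrc1 in that comparison, -0.18 to 0.17 for Clec10a with IFN-γ, -1.15 to 0.31 for its interaction, and -0.12 to 1.08 for Mrc1 between IFN-γ and E. coli.

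Over all genes, calls with IL-4 moved from 79 higher and 37 lower to 389 and 356 with array weights, 127 and 85 with edgeR, 128 and 81 with DESeq2, 125 and 83 with no filter, 45 and 29 with the replicate block, and 345 and 311 without replicate 3 of both groups (chosen after seeing the data), where 5 members were called; all 18 libraries in one fit gave 105 lower. Elsewhere, lower calls went with a mean of at least 50 from 1013 to 645 for IFN-γ and from 1746 to 963 for both stimuli, with array weights from 534 to 870 for E. coli, and with all 18 libraries from 435 to 281 for the interaction. Without a fold threshold, higher calls for E. coli within IFN-γ went from 606 to 963. Few reads carried Cd209a and Cd209d, and 0 reads of Cd209e in the Type 1 experiment allow a pooled level of up to 0.262 normalized counts.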
